A study of Mus musculus with 16 samples.

Results

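The genes of the cytosolic ribosomal proteins were examined in dendritic cell progenitors of mice with and without a mammary tumor. A gene was a member if its symbol on the array was Rpl or Rps followed by a digit, or Rplp0, Rplp1 or Rplp2, without the S6 kinase genes (Rps6k) and without pseudogene names. This gave 85 genes of 24335 with a symbol, on 187 probes, and the probe with the brightest mean over the arrays stood for its gene. The samples were 16 one-color Cy5 arrays of sorted bone marrow progenitors, 4 in each of 4 groups, all from female C57/Bl6 mice. Macrophage and dendritic cell progenitors (MDPs) are the earlier stage, and common dendritic cell progenitors (CDPs) arise from them on the way to conventional dendritic cells. The tumor-bearing mice carried PyMT-B6 tumors of 1.5 cm in the mammary fat. PyMT-B6 is 1 line, derived from an MMTV-PyMT mammary tumor on the same background, in which the mouse mammary tumor virus promoter drives the polyoma middle T oncogene. The controls carried no tumor. Each sample pooled a pair of mice, per the study, and cells were sorted after lineage depletion. The number of arrays limits the precision of every value here.

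The ribosome is the particle that translates mRNA into protein. Its small subunit decodes the message and its large subunit joins amino acids, and each is built from ribosomal RNA and ribosomal proteins made in near-equal number. Mammalian ribosomal protein mRNAs carry a 5′ terminal oligopyrimidine (TOP) tract, a run of C and T at the very start of the transcript, through which mTOR signaling adjusts their translation. Translation control of this kind is not visible in an RNA level. In blood formation these genes are known from Diamond-Blackfan anemia, in which loss of 1 copy of a gene such as RPS19, RPL5 or RPL11 impairs red cell production.

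The starts of the genes are shown first because they carry the feature the family is known for. RefSeq promoter windows (GRCm38.p6, from 250 bases before to 50 bases after the annotated start) matched 64 of the 85 members, with 76 windows in all. Every member with CTTTTC or CCTTTT within 20 bases of the start on the coding strand is printed below, from 30 bases before to 20 bases after it, 5′ to 3′, with these overlapping motifs in capitals. The regions are chr2:32961682-32961731 (+) for Rpl12, chr7:109519165-109519214 (+) for Rpl27a, chr3:130730318-130730367 (-) for Rpl34, chr9:64173357-64173406 (+) for Rpl4, chr10:23787190-23787239 (-) for Rps12 and chr9:44407684-44407733 (+) for Rps25.
Rpl12: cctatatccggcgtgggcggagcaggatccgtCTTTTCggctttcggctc
Rpl27a: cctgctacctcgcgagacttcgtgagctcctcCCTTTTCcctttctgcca
Rpl34: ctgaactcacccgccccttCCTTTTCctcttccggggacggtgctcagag
Rpl4: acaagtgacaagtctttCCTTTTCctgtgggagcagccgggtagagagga
Rps12: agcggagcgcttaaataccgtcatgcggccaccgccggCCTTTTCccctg
Rps25: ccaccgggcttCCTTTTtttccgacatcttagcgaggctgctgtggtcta
At least 1 of the motifs was present in 6 of 76 member windows (7.89%) and in 694 of 32851 windows of all genes (2.11%). A looser measure, a C followed by 5 bases that are each C or T, was found within the same distance in 43 member windows (56.6%) and in 29.4% of all windows. The ETS-type motif CCGGAAGT, searched on both strands of the whole window, was in 13.2% of member windows and 3.89% of all windows, and AAGATGGCG, a YY1-type motif, in 7.89% and 1.4%. The TATA motif TATAAA was in 9.21% of member windows and 13.6% of all. A match is a description of the window and not a site, and an annotated start can lie some bases from the true one.

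Ribosomal protein probes gave bright spots. Of the 85 genes, 83 were tested by their brightest probe, and 81 were well above background on all 16 arrays. Of these 83 probes, 73 (88%) were among the brightest 5% of tested probes. The 2 genes whose brightest probe was not tested were Rpl3l and Rpl10l, copies with expression known mainly from muscle and testis. That probe was well above background on 0 of 16 arrays for Rpl3l and on 3 for Rpl10l. A dimmer probe of Rpl10l did enter the test. Rpl39l, another testis-associated form, was tested but dim, with values from -7.34 to -2.15 on the log2 scale relative to the array's 75th percentile. Values below are on that scale unless stated. Rpl23 had a value on 15 arrays, and its fit dropped the missing one. These mRNAs have many processed copies in the genome. Of 82 member probes with a position in the array design, 54 lay on another chromosome than the gene in RefSeq (probe positions are on mm9, and only chromosome names were compared). Among the 54 are the probes of Rps6, Rps14, Rps19, Rpl4, Rpl5, Rpl11, Rpl12, Rplp0 and Rplp1, whose values are given below. Whether these probes match processed copies was not tested, and a member's value may include RNA of a near-identical copy. In bulk samples, fewer cells of a type and less RNA per cell cannot be told apart either.

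Arrays differed more by the glass slide they were on than by group. For each array the median over the 83 members was taken after each gene was centered on its mean over 16 arrays. In tumor-free MDPs this median was -0.06, -0.39, 0.26 and -0.12 for replicates 2 to 5, and in MDPs from PyMT-B6 tumor-bearing mice it was -0.28, 0.32, -0.34 and 0.37. In tumor-free CDPs it was 0.07, 0.02, -0.08 and -0.40, and in CDPs from tumor-bearing mice 0.14, 0.35, 0.15 and -0.01. All 4 lowest arrays lay on slide 1, which held 2 MDP arrays from tumor-bearing mice, 1 tumor-free MDP array, 1 tumor-free CDP array and no CDP array from tumor-bearing mice. The 4 groups overlapped. As a description, slides accounted for 69.4% of the variance of this median and groups for 15.8%, and slides for more than groups in 72 of 83 members. The members varied together from array to array, with a median correlation of 0.74 over the 3403 pairs of members, which share arrays, slides and brightness.

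**Figure D1:**
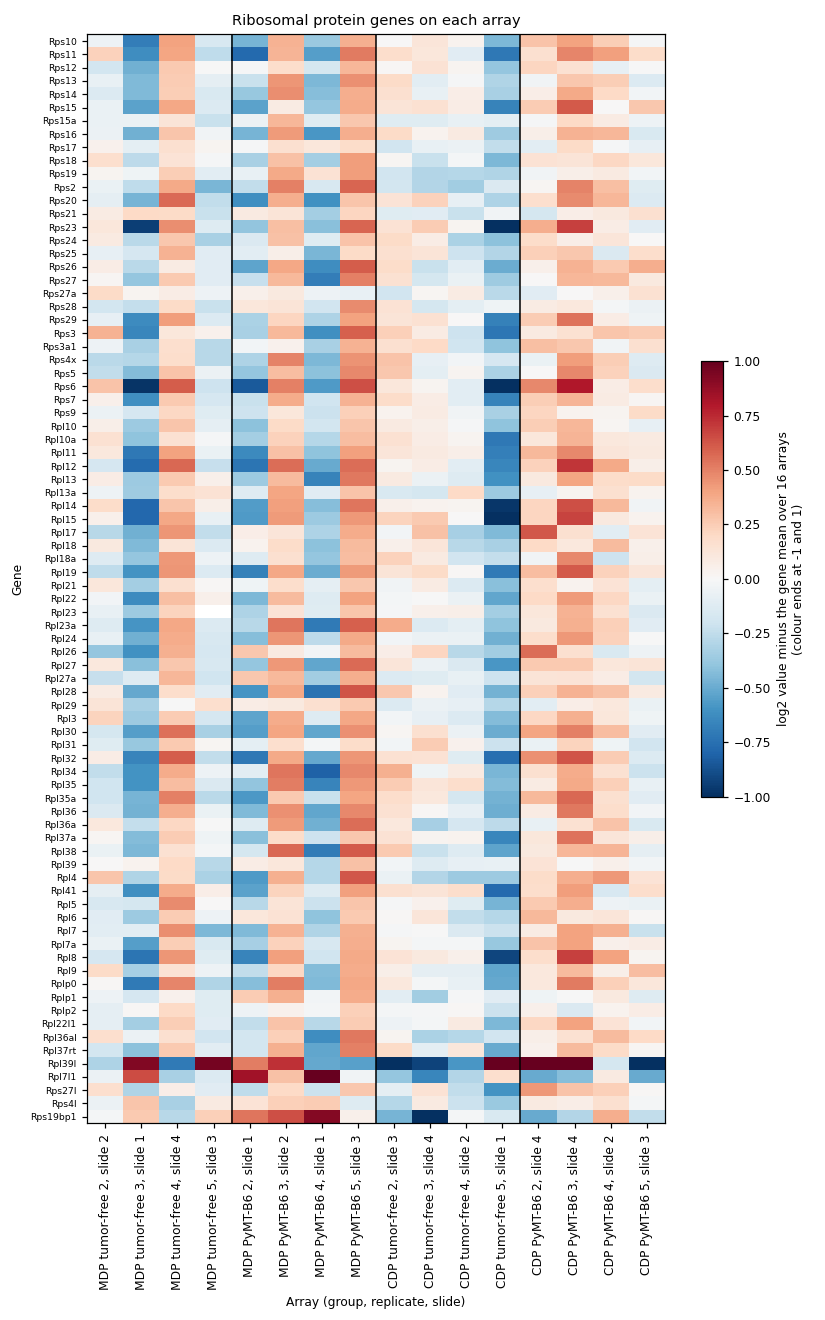
Heat map of 82 of the 83 tested members (rows, small subunit first, then large subunit, stalk, variant forms and Rps19bp1) on 16 arrays (columns, with group, replicate and slide), colored by the log2 value minus the gene's mean over the arrays. Whole columns are red or blue together, with the blue columns of slide 1 in 3 of the 4 groups, and Rpl7l1, Rpl39l and Rps19bp1 depart from the columns.

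The family median also moved with the way arrays were scaled. With quantile normalization, which gives every array the same distribution, the per-array medians lay between -0.12 and 0.12. For tumor-bearing against tumor-free mice, the family median was 0.01 (CDPs) and 0.05 (MDPs) under quantile normalization, and 0.00 and -0.02 with cyclic loess. Scaling to the 75th percentile gave 0.27 and 0.08. The direction of the family as a whole is given below with this dependence beside it.

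**Figure D2:**
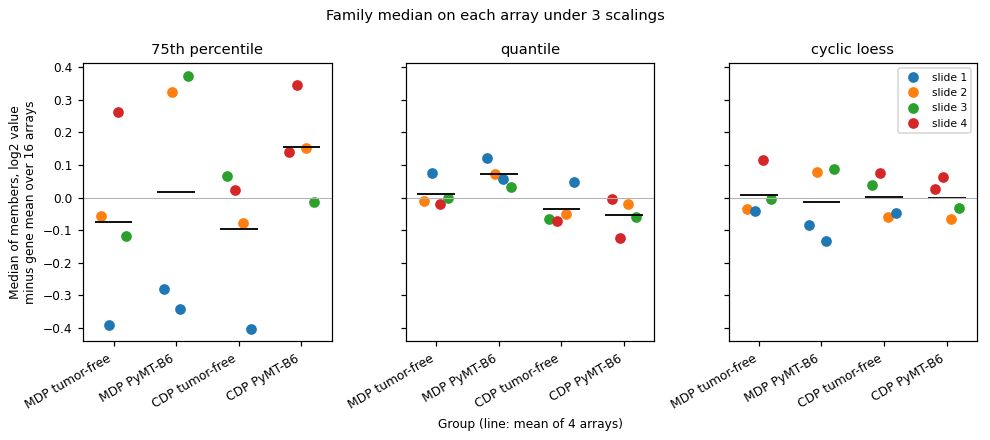
Median of the 83 members on each array (log2 value minus the gene's mean over 16 arrays) in the 4 groups under 3 scalings, with points colored by slide and a line at the mean of 4 arrays. Under the 75th percentile the points spread from -0.40 to 0.37 and the slide 1 points are lowest, while under quantile normalization they lie between -0.12 and 0.12.

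The comparison of CDPs from PyMT-B6 tumor-bearing and tumor-free mice asks whether a distant tumor alters the RNA of the translation machinery in the progenitor committed to dendritic cells. None of the 83 tested members passed the test (FDR under 0.05 and fold change above 1.5, limma with Benjamini-Hochberg adjustment), against 1.8% of all 27433 probes tested. At an unadjusted p under 0.05 there were 3 members (3.61%, against 13.7% of all probes), and 0 passed under the methods' unpaired test (7.59% of all probes). The values were nearly all on 1 side: 81 of 83 members were higher with tumor, by 0.27 in the median, while 57.6% of all tested probes were higher, with a median of 0.08. With the slide as a block the member median was 0.11, and within slides it was 0.23 on slide 2, -0.02 on slide 3 and 0.26 on slide 4. The within-slide values set 1 array against 1 on slides 2 and 3, and 2 against 1 on slide 4. By quantile normalization 42 of 83 members were higher and the median was 0.01. The 95% interval of the change lay within 1.5-fold either way for 19 members, so that for the other members a change of that size was not excluded by these arrays.

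In the small subunit, Rps6 had the largest rise of the family with tumor in CDPs. Its dimmer probes rose by 0.43 and 0.11. Rps6 is the ribosomal protein phosphorylated by S6 kinase downstream of mTOR. Its values in tumor-free CDPs were 4.74, 4.65, 4.52 and 3.61, and in CDPs from tumor-bearing mice 5.11, 5.42, 4.70 and 4.80. The low array was replicate 5, on slide 1, and the groups overlapped. The difference was 0.63 ± 0.40 (SE, 95% interval -0.23 to 1.49, limma adjusted p = 0.57). Rps19, whose loss is the commonest known cause of Diamond-Blackfan anemia, was less spread. It was 2.84, 2.74, 2.75 and 2.73 in tumor-free CDPs and 2.999, 3.092, 3.117 and 3.003 in CDPs from tumor-bearing mice. The groups did not overlap, but the difference was small at 0.29 ± 0.13 (SE, limma adjusted p = 0.357, exact permutation p = 0.0286, the smallest that 4 against 4 arrays allow). Rps14, the gene lost in the 5q- syndrome, differed by 0.19 ± 0.22 (SE). All 30 tested small subunit members were higher in tumor-bearing mice, from 0.07 to 0.63.

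In the large subunit, Rpl4 and Rpl12 had the largest rises. Rpl4 was 4.36, 4.13, 4.06 and 4.06 in tumor-free CDPs and 4.60, 4.79, 4.86 and 4.56 in CDPs from tumor-bearing mice, with no overlap. Its difference was 0.55 ± 0.24 (SE, 95% interval 0.04 to 1.06, limma adjusted p = 0.314, exact permutation p = 0.0286). Rpl12, in the stalk base, was 4.59, 4.64, 4.46 and 3.91 against 4.79, 5.28, 4.94 and 4.62, and the groups overlapped. Its difference was 0.51 ± 0.33 (SE, limma adjusted p = 0.582). Rpl5 and Rpl11, which with 5S rRNA bind MDM2 and so link ribosome assembly to p53, differed by 0.26 ± 0.19 and 0.36 ± 0.28 (SE). Rpl10, which joins late in assembly of the subunit, differed by 0.19 and Rpl38, which is linked to translation of Hox mRNAs, by 0.32. Rpl31 lay at the other end of the subunit with -0.03 ± 0.16 (SE), from 4.08 to 4.54 across all 8 CDP arrays. This depended on the probe, since its dimmer probes differed by 0.28 and -0.02. In all, 41 of 42 large subunit members were higher, and 11 of the 83 members (13.3%) had groups that did not overlap, near the 11.1% of all probes.

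The stalk proteins form the flexible arm that recruits elongation factors. Rplp0, its base, was 5.03, 4.91, 4.86 and 4.42 in tumor-free CDPs and 5.04, 5.45, 5.17 and 5.04 in CDPs from tumor-bearing mice. These groups did not overlap, by a narrow margin, and the difference was 0.37 ± 0.28 (SE, limma adjusted p = 0.654). Rplp1 differed by 0.13 ± 0.13 and Rplp2 by 0.06 ± 0.12 (SE). The Rplp2 interval, -0.21 to 0.32, lay within 1.5-fold either way.

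**Figure D3:**
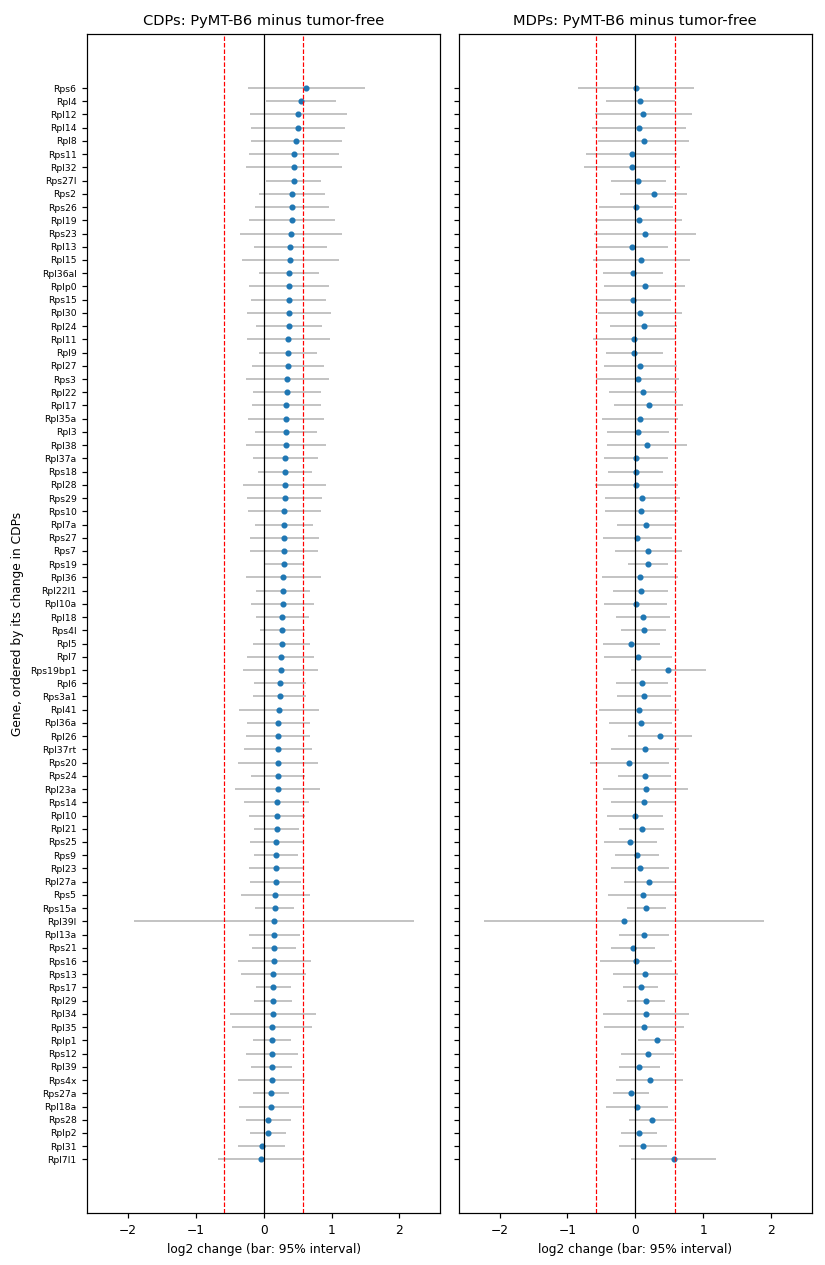
Change with tumor for 82 of the 83 tested members in CDPs (left) and MDPs (right), as log2 of PyMT-B6 tumor-bearing over tumor-free with its 95% interval, ordered by the change in CDPs. Dashed lines mark 1.5-fold. The CDP points lie from -0.05 to 0.63, nearly all above 0, the MDP points from -0.17 to 0.56, and no member passed the test in either.

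In MDPs the same comparison gave smaller values. No member passed the test, against 0.0656% of all probes, with 1 member at an unadjusted p under 0.05 (10.4% of all probes) and none by the methods' unpaired test (3.74% of all probes). The median member change was 0.08, with 69 of 83 higher, while the median over all probes was -0.12. No member had groups that did not overlap, against 5.2% of all probes, and 42 intervals lay within 1.5-fold. Rplp1 gave the smallest unadjusted p. It was 4.48, 4.36, 4.57 and 4.41 in tumor-free MDPs and 4.78, 4.89, 4.50 and 4.90 in MDPs from tumor-bearing mice, a difference of 0.32 ± 0.13 (SE, limma adjusted p = 0.452). Rps6, at the top in CDPs, differed by 0.01 ± 0.40 (SE) in MDPs. Within slides the member median was 0.08 on slide 1 (2 arrays against 1), and 0.31 on slide 2 and 0.52 on slide 3 (1 array against 1). With the slide as a block it was 0.24.

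The difference of the tumor change between CDPs and MDPs was tested directly. No member passed, against 0.0146% of all probes, and none had an unadjusted p under 0.05 (4.03% of all probes). The median difference was 0.19 over the members and 0.15 over all probes. With the slide as a block the median of the members turned to -0.12, and with quantile normalization to -0.04. Only 11 intervals lay within 1.5-fold, since the standard error of this comparison was larger, with a member median of 0.32.

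The step from MDPs to CDPs was compared within each tumor state. In tumor-free mice no member passed, against 6.1% of all probes, with 1 member at an unadjusted p under 0.05 (17.1% of all probes) and 0 by the methods' unpaired test (10.9% of all probes). The median was -0.05 over the members and 0.02 over all probes, and 46 intervals lay within 1.5-fold. In tumor-bearing mice no member passed, against 7.26% of all probes, with 2 members at an unadjusted p under 0.05 (27.8% of all probes) and 2 by the methods' unpaired test (15% of all probes). Here the member median was 0.15 and that of all probes 0.19. With the slide as a block the member median was -0.18, with 5 of 83 higher, and with quantile normalization -0.11, with 17 higher. On the 2 slides that held both of these groups it was -0.16 and -0.37, with 1 array against 1 on each. Rps19 was the only 1 of 83 members whose groups did not overlap in the tumor-free step, where 13.3% of all probes did not, and it was lower in CDPs by 0.30 ± 0.13 (SE, limma adjusted p = 0.266).

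Rpl7l1 and Rps19bp1, a variant form and a gene of no subunit, had the largest falls of the family in the step of tumor-bearing mice. Rpl7l1 is a relative of Rpl7 with a known place in ribosome assembly. It was 0.05, 0.77, -0.21 and -0.02 in tumor-free MDPs, 0.95, 0.41, 1.41 and 0.08 in MDPs from tumor-bearing mice, -0.27, -0.54, -0.18 and 0.29 in tumor-free CDPs and -0.39, -0.31, 0.21 and -0.39 in CDPs from tumor-bearing mice. In tumor-bearing mice it was lower in CDPs than in MDPs by 0.93 ± 0.30 (SE, limma adjusted p = 0.0702, exact permutation p = 0.0571), which missed the threshold, and the groups overlapped. In each group with arrays on slide 1, the highest values of Rpl7l1 were on that slide (0.77, 0.95 and 1.41, and 0.29). No CDP array from tumor-bearing mice was on slide 1, so slide and stage cannot be told apart for these values. Rps19bp1 is a binding partner of Rps19 and activator of the deacetylase Sirt1, and no subunit. Its values in MDPs from tumor-bearing mice were 0.85, 0.96, 1.24 and 0.37, and in CDPs from tumor-bearing mice -0.18, 0.03, 0.68 and 0.08. The difference was -0.70 ± 0.26 (SE, limma adjusted p = 0.109). Without replicate 5 of the MDPs from tumor-bearing mice both passed the test, at -1.14 (limma adjusted p = 0.027) and -0.87 (limma adjusted p = 0.048). Of 25 settings, that was the only 1 to call either by this rule, and over the 25 the values ran from -1.14 to -0.39 for Rpl7l1 and from -0.88 to -0.30 for Rps19bp1. Across the arrays both ran against the family, with correlations to the member median of -0.57 and -0.29 over 16 arrays, as a description. Rpl39l and Rps4l, which like these were far dimmer than the other tested members, had -0.12 and -0.11. Every other tested member had a positive correlation.

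**Figure D4:**
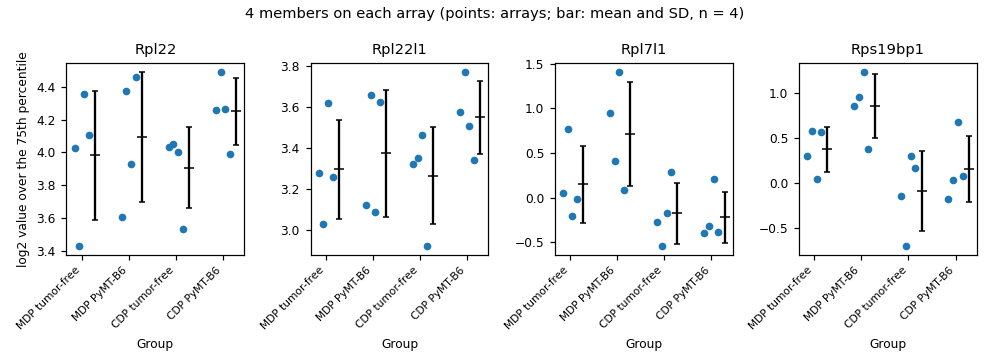
Rpl22, its relative Rpl22l1, Rpl7l1 and Rps19bp1 on each array (log2 value relative to the array's 75th percentile, points) in 4 groups, with mean and SD (n = 4) beside them. The groups of Rpl22 and Rpl22l1 overlap throughout, and the means of Rpl7l1 and Rps19bp1 are highest in MDPs from tumor-bearing mice.

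For the other pairs of a ribosomal protein and its relative, the brightest tested probes were higher with tumor in CDPs, and none passed. Rpl22, which is lost in some T cell leukemias and is known to bind the mRNA of its relative Rpl22l1, differed with tumor in CDPs by 0.34 ± 0.23 and Rpl22l1 by 0.28 ± 0.19 (SE). A dimmer probe of Rpl22 went the other way, at -0.44 (limma adjusted p = 0.375). Rps27 differed by 0.30 ± 0.24 and Rps27l, a p53 target, by 0.44 ± 0.19 (SE, limma adjusted p = 0.304 for Rps27l). Rpl36a and Rpl36al differed by 0.22 and 0.37, Rps4x and Rps4l by 0.12 and 0.27, and Rpl39 and Rpl39l by 0.12 and 0.16. The dim Rpl39l had an SE of 0.96, so its value says little about the pair. Rpl3 differed by 0.33, and its pair has only 1 tested gene. The relative of Rpl10, Rpl10l, entered the test only with its dimmer probe, which differed by 0.70 (limma adjusted p = 0.831). Rps27a, which encodes a ribosomal protein fused to ubiquitin, differed by 0.11. The differences within pairs were not tested. Rpsa, Fau and Rack1 (Gnb2l1 on the array), which belong to the ribosome but not to the name rule, differed by 0.22, 0.20 and 0.44, and none passed.

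For members with a tested brightest probe, 100 other probes were tested, for 57 genes. Their medians for tumor were 0.26 (CDPs) and 0.07 (MDPs), and 0 passed. In CDPs against MDPs, 3 of these 100 probes passed in tumor-free mice and 3 in tumor-bearing mice, all lower in CDPs, which is below the share of all probes (6.1% and 7.26%). Those named here were chosen after their values were seen. A probe of Rpl30 passed in both, at -0.61 without and -0.66 with a tumor, while the brightest probe of the gene did not pass. A probe of Rpl14 passed in tumor-free mice, at -0.60, and a probe of Rpl22 in tumor-bearing mice, at -0.82.

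Genes that build the ribosome did pass in the step from MDPs to CDPs. Among 58 tested ribosome biogenesis factors, which process and assemble ribosomal RNA and proteins in the nucleolus, 21 were lower and 0 higher in CDPs of tumor-free mice, with a median of -0.70. In tumor-bearing mice 14 were lower and 0 higher, with a median of -0.55. Cirh1a fell by 1.44 ± 0.16 and Gnl3 (nucleostemin) by 1.29 ± 0.23 (SE, limma adjusted p = 0.000159 and 0.00315) in tumor-free mice. Of 19 genes of RNA polymerase I and its factors, which transcribe ribosomal RNA, 3 were lower in each state, among them the catalytic subunit gene Polr1b at -1.48 and -1.19. The share of all probes was 6.1% and 7.26%. With 1 array left out these 3 became 2 to 4 (highest without MDP replicate 3) in the tumor-free step (2 without CDP replicate 2, 3 or 4 or MDP replicate 2 or 5) and 1 to 5 in the tumor-bearing step (5 without CDP replicate 4, 1 without CDP replicate 2 or 3 or MDP replicate 2 or 4). Of 76 mitochondrial ribosomal proteins, which serve a separate ribosome in mitochondria, 6 and 3 were lower, near or below the 6.1% and 7.26% of all probes. In the tumor-bearing step these 3 became 1 to 11 when 1 array was left out (highest without CDP replicate 4, lowest without CDP replicate 2 or 5 or MDP replicate 2 or 4), and in the tumor-free step the 6 became 3 to 6 (lowest without CDP replicate 2 or MDP replicate 2 or 5). Myc, a transcriptional activator of ribosome biogenesis, changed by -1.65 ± 0.29 and -1.44 ± 0.29 (SE, limma adjusted p = 0.00323 and 0.00819). It was 1 of 19 tested regulators of ribosomal protein synthesis. Of these, 1 was lower and 1 higher in tumor-free mice, and 2 were lower and 0 higher in tumor-bearing mice. The medians of the regulators were -0.06 and -0.12. Of 20 genes with TOP mRNAs, most of them translation factors, none passed in tumor-free mice and 1, Eif3a, was lower in tumor-bearing mice.

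The biogenesis counts depended on single arrays and less on scaling. In the tumor-free step 10 to 26 factors were lower when 1 array was left out (lowest without tumor-free CDP replicate 3 or tumor-free MDP replicate 2), and 35 with the slide as a block. In the tumor-bearing step 2 to 32 were lower (lowest without replicate 4 of the MDPs, highest without replicate 4 of the CDPs), with 9 under the slide block and 8 under the replicate block, and the median stayed at or below -0.45. Markers of other cells moved with the same step. T and NK cell markers (9 of 12 tested) had summed levels of 14.4 to 14.9 in tumor-free MDPs and 2.66 to 3.60 in tumor-free CDPs, and Cd3g, Cd8a and Gzma had no tested probe. The change was -3.12 for Nkg7 and 3.81 for Klrd1, which both passed, and over the list 5 genes were higher and 4 lower, with a median of 0.01. Monocyte and macrophage markers (11 of 12) had 59.0 to 69.3 and 74.0 to 102, and neutrophil markers (12 of 14) 89.9 to 134 and 50.3 to 72.1, with no tested probe for Ly6g. Of the neutrophil markers 7 were higher and 5 lower, 2 passing each way, and in tumor-bearing mice their sums overlapped (97.8 to 165 in MDPs and 92.9 to 137 in CDPs). Their part in the result was not tested. Kit, used in sorting, was lower in CDPs in both states. It was 1 of 8 tested marker genes of the progenitor gates. Of these, 7 were higher in CDPs in tumor-free mice (median 0.49) and 6 in tumor-bearing mice (median 0.42). In each state 1 passed as higher and 1 as lower.

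**Figure D5:**
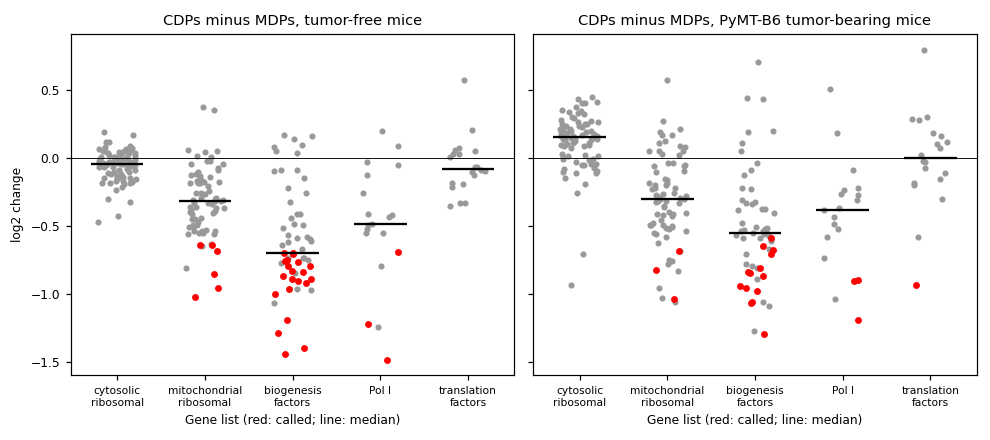
Change from MDPs to CDPs (log2) for each tested gene of 5 lists in tumor-free (left) and PyMT-B6 tumor-bearing mice (right), with genes that passed the test in red and a line at the median. The cytosolic ribosomal proteins hold no red point, and among the biogenesis factors 21 and 14 red points lie below 0. The list labeled translation factors also holds other genes with TOP mRNAs.

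With tumor, few of these other genes passed. In CDPs 2 of 58 biogenesis factors and 2 of 76 mitochondrial ribosomal proteins passed, against 1.8% of all probes. The biogenesis factors Nhp2 and Cirh1a rose by 0.75 and 0.98, the mitochondrial ribosomal proteins Mrps28 and Mrps35 by 0.84 in each case, and the translation inhibitor Eif4ebp1 by 0.59. The p53 target Cdkn1a rose by 1.02 ± 0.22 (SE, limma adjusted p = 0.0337), and it was the only 1 of 11 p53 and nucleolar stress genes to pass. With the slide as a block 13 biogenesis factors, 8 mitochondrial ribosomal proteins and 2 genes of RNA polymerase I passed, all higher. That block also raised the share of all probes that passed above 1.8%, with the count given in the last paragraph. In the same CDPs the neutrophil markers had summed levels of 92.9 to 137 against 50.3 to 72.1 in tumor-free mice. Of the 12 tested neutrophil markers 8 were higher and 4 lower, and 3 passed, all higher. Of the monocyte and macrophage markers 10 of 11 were higher, and of the erythroid markers 10 of 11 were lower. The part of these other cells in the result was not tested. In MDPs no gene of these ribosome lists passed. Among the mitochondrial ribosomal proteins 72 of 76 were higher with tumor in CDPs (median 0.323) and 74 in MDPs (median 0.292). Among the biogenesis factors 53 of 58 were higher in CDPs (median 0.417) and 56 in MDPs (median 0.322). With quantile normalization these medians were 0.225 and 0.248 for the mitochondrial list and 0.338 and 0.314 for the biogenesis list. The genes whose 16 values ran most like the member median, of 15442 compared, were Gm8709 (r = 0.977), Eif3k (0.973), Ube2v1 (0.967), Anp32b (0.965) and Gm5766 (0.962), as a description over 16 arrays that share slides.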

How the data were processed

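For each array the authors deposited a Feature Extraction 11.5.1.1 spot table. Its processed signal is an intensity, background-subtracted by the authors and not scaled between arrays. The authors also deposited a table of log2 values, found to be quantile-normalized and used as an alternative. Flags of 0 or 1 for background and outlier spots are other columns of the deposited tables.

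Spots were put on a log2 scale, set against the 75th percentile of their array and averaged per probe. The percentile was first taken over spots not flagged as outliers (491, 17 and 4 probes called for tumor in CDPs, tumor in MDPs and their difference). It was then taken over all noncontrol spots (494, 18 and 4), because an earlier analysis of these data had been processed so and gave those counts. The choice was made with these counts in view, and no member was called under either, nor with the percentile over probe means. A probe entered the test (27433 did) if some group had 3 or more of its 4 arrays flagged well above background. Group means of 16 arrays were fitted with limma 3.58.1 (R 4.3.3), and a probe was called at an FDR under 0.05 and a fold above 1.5. Exact permutation tests were two-sided. The procedure was tested on simulated data. The members, gene lists and tests were chosen with earlier results of these data known. In each comparison the 3 highest and 3 lowest members, members of known role, paralog pairs and called list genes could be named. The replicate numbers were not taken to pair the arrays. Single values of 2 genes are not reported here.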

Additional observations from a re-analysis of the deposited data

Results flagged for a closer look

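In 64 groups of 4 values checked, 5 held 1 array far from the other 3, where chance gives about 1 in 20. The gap of that array to its neighbor, as a share of the group's range, was 0.844 for Rps19 in tumor-free CDPs (replicate 2 high), 0.924 for Rpl11, 0.903 for Rpl22 and 0.863 for Rplp2 in tumor-free CDPs (replicate 5 low in each), and 0.868 for Rpl7l1 in CDPs from tumor-bearing mice (replicate 4 high). Replicate 5 of the tumor-free CDPs was the array of that group on slide 1.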

How the results depend on the processing

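No member was called under any alternative in 4 of the 5 comparisons. In CDPs against MDPs of tumor-bearing mice, the methods' unpaired test without adjustment called 2 (Rpl7l1 and Rps19bp1), an FDR under 0.1 with no fold called 1 (Rpl7l1), and leaving out 1 array called 0 to 2. The median member change moved by more than the spread between replicates (0.266) as follows. For tumor in CDPs it was 0.00451 with cyclic loess and -0.0389 with cyclic loess and the slide block, the latter chosen after seeing the data. For the difference between CDPs and MDPs it was -0.123 with the slide block and -0.127 with slide and replicate block. For CDPs against MDPs in tumor-bearing mice it was -0.184 and -0.181. With 1 array left out, the median ranged from 0.162 to 0.322 for tumor in CDPs, from -0.034 (without MDP replicate 5 of tumor-bearing mice) to 0.207 in MDPs, from 0.0672 to 0.294 for their difference, from -0.145 to 0.0765 for the tumor-free step and from 0.0171 to 0.276 for the tumor-bearing step.

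The replicate block changed no call and left the median at 0.273 for tumor in CDPs. Of 24 pairs of arrays that share a replicate number, 8 correlated above 0.1 in their deviations from the group means (median -0.006, highest 0.482). These pairs include arrays of tumor-bearing and tumor-free mice, which cannot share mice. Whether MDPs and CDPs with the same number and tumor state came from the same mice was not tested separately. Over all probes the calls for tumor in CDPs were 494, and 1248 with the slide block, 371 with the replicate block and 3 with the methods' unpaired test after Benjamini-Hochberg adjustment. Calls for tumor in MDPs were 18, and 44 with the slide block, 38 at an FDR under 0.1 with no fold, 30 with the 95th percentile, 11 with quantile normalization, 10 with the replicate block, 10 with no filter or a filter on all arrays, 7 with the deposited table, 6 with normexp, 5 with only the groups compared, 3 with slide and replicate block, 1 with quantile normalization and slide block, 1026 with the methods' test before and 1 after adjustment, and 1 to 46 with 1 array left out (lowest without tumor-free or tumor-bearing replicate 4, highest without tumor-bearing replicate 5).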
